A study of Mus musculus with 18 samples.

Results

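Glycolysis and hypoxia-response genes were followed in mouse bone marrow-derived mast cells, which are mast cells grown from bone marrow precursors in culture. The list held 36 genes: glucose transporters, the enzymes from hexokinase to pyruvate kinase, the enzymes and carriers that decide the fate of pyruvate, and genes that cells induce at low oxygen. Every probe named for one of them was taken, and where a gene had several probes the one with the highest mean level stood for the gene. Of the 36 genes, 33 had a named probe and 31 passed the detection filter, out of 10529 genes that passed it in the whole series. Hk2 and Gpi1, which start the pathway, and Eno1, the widely expressed enolase, had no named probe and are not analysed here. Hk3, a hexokinase of blood cells, was detected on at most 2 arrays with intensities of 83.7 to 105, and Bnip3, a mitophagy receptor, on 0 arrays with intensities of 77.1 to 98.7. These 2 genes were left out of the tests. Ero1l is given under its present symbol, Ero1a.

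Total RNA came from C57BL/6J cells of 2 genotypes, ST2KO and wild type (WT), with an age given as 4 to 6 weeks and no statement of whether it is that of the mice or of the cultures. ST2 is the receptor for IL-33, an alarm cytokine released by damaged cells. Cells of each genotype were activated through IgE for 4 h, stimulated with IL-33 for 4 h, or left unstimulated, with 3 arrays in each of the 6 groups and no other allele or agent named in the labels. Each culture carries a number in the labels (ST2KO1 to ST2KO3 and WT1 to WT3) that recurs in its 3 conditions, so every change with a stimulus below is a change within cultures. The labels do not say whether the 3 cultures of a genotype came from different mice. P-values for a stimulus therefore set its mean change against the spread of arrays within cultures, with each culture's own level taken out. For each gene that spread was pooled over both genotypes and all 3 conditions and moderated with the help of all genes. It is not the spread of a single stimulus between its own 3 cultures. These p-values do not measure a spread between mice.

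Glycolysis splits glucose to pyruvate. Hexokinase and phosphofructokinase spend ATP in its first steps, and the enzymes from glyceraldehyde-3-phosphate dehydrogenase (Gapdh) to pyruvate kinase (Pkm) earn it back. Pyruvate is either reduced to lactate and exported or taken into mitochondria, a step that pyruvate dehydrogenase kinases close. The transcription factor HIF-1, whose oxygen-sensitive subunit is Hif1a, raises many of these genes when oxygen is low, and the prolyl hydroxylases Egln1 and Egln3 mark Hif1a protein for destruction when oxygen is present. Activated mast cells release granules and make cytokines, which costs ATP, and glucose breakdown is one of its sources.

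HIF-1 binds DNA at short elements whose core is ACGTG or GCGTG. The 250 bases before the start site are printed below, from RefSeq on GRCm38.p6, for 2 genes whose level moved most with both stimuli, Eno2 and Ddit4, and for Ankrd37 and Egln3, oxygen-response genes that with P4ha2 had the 3 widest ranges between cultures. Capitals mark ACGTG or GCGTG on either strand. The windows are chr6:124769674-124769923 (minus strand) for Eno2, chr10:59951771-59952020 (minus strand) for Ddit4, chr8:45999851-46000100 (minus strand) for Ankrd37 and chr12:54203875-54204124 (minus strand) for Egln3.
Eno2: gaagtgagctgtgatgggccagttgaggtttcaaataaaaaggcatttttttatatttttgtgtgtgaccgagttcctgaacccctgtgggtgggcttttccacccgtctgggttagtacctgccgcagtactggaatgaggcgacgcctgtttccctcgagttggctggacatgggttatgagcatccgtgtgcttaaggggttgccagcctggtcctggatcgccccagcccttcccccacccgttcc
Ddit4: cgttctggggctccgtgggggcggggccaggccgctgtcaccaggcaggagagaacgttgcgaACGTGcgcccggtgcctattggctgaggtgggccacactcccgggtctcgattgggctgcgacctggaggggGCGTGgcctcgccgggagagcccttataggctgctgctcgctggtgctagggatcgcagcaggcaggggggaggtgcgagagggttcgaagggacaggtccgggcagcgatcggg
Ankrd37: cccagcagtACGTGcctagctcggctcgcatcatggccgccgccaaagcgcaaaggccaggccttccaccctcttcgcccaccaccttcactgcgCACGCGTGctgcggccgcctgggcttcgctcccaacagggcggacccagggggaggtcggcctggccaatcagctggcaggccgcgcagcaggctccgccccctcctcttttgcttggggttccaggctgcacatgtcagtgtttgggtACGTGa
Egln3: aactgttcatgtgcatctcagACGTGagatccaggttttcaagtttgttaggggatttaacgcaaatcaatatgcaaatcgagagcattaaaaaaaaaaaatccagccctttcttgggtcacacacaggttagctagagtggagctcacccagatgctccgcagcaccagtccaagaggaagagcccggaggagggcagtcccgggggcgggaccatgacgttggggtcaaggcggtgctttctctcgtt
The Ankrd37 window held 4 matches, 2 of them overlapping in a single run that begins at position -155, counted from the start site. The Ddit4 window held 2 matches and the Egln3 window 1. The Eno2 window held 0, which says only that these letters are not in these 250 bases. Of 46 such windows of 33 listed genes, 38 (82.6%) held ACGTG or GCGTG, against 12679 of all 32851 windows (38.6%). ACGTG, with or without GCGTG, was in 52.2% of the members' windows and in 16.6% of all windows. GCGTG, with or without ACGTG, was in 56.5% and 28.2%. Many of the listed genes are known for their response to HIF-1, so these shares describe the list and were not tested.

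On the 17 complete arrays 15911 to 17490 of 45281 probes were detected. ST2KO IgE replicate 3 held intensities for 10012 probes, among them those of 3 members (Aldoa, Aldoc and Ankrd37), and its values for all probes were placed by rank from the authors' log2 table. Within a group, arrays 1 and 2 correlated at 0.992 to 0.994 and array 3 correlated with them at 0.935 to 0.968, across probes. All 11 mast cell markers were measured, with mean log2 levels of 13.89 for Kit, 14.82 for Fcer1a and 14.86 for Cpa3. Of 13 macrophage and dendritic cell markers 7 were measured, of 8 neutrophil markers 1, and of 4 lymphocyte markers 0. Il1rl1, the gene of ST2, is not analysed here, which leaves the ST2KO label unchecked at its own gene. Fewer cells of a type and less RNA per cell cannot be told apart in these bulk arrays.

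Levels below are log2 values after background correction and quantile normalization, and a call is an adjusted p under 0.05 from limma over all 10529 genes. IgE changed 11 of the 31 members in ST2KO cells, 7 up and 4 down (35.5%, where 33.8% of all genes were called, 15.1% up and 18.7% down). In WT cells IgE changed 11 members, 5 up and 6 down (35.5%, where 32.5% of all genes were called, 14.6% up and 17.9% down). IL-33 changed 0 members in ST2KO cells (where 0% of all genes were called) and 10 in WT cells, 4 up and 6 down (32.3%, where 31.5% of all genes were called, 13.5% up and 18% down). The members' shares thus lay near the background of all genes in each comparison, and the median change over the members was between 0.03 and 0.11 in these 4 comparisons. Scaling by the array median in place of quantiles lowered the higher share among all genes called for IL-33 in WT to 22.2%, against 42.8%, moved the median of all genes there by -0.14, and gave 3 members up and 6 down. Over all 10529 genes 740 were up and 2594 down there. For IgE median scaling gave 10 members up and 3 down in ST2KO cells, beside 1410 genes up and 1473 down. In WT cells it gave 4 members up and 6 down for IgE, beside 1067 genes up and 1943 down.

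Markers of macrophages and dendritic cells moved with the stimuli too. Of the 7 measured, IgE lowered 2 in ST2KO cells and 2 in WT cells. IL-33 called 0 in ST2KO cells and raised 3 in WT cells, by up to 2.39, and 4 were higher after IL-33 than after IgE there, by up to 2.43. Their summed linear level was 643 to 3714 after IgE and 1109 to 6945 after IL-33 in WT cells, against 795 to 5078 without stimulation. Mean log2 levels over all arrays were 8.62 for H2-Ab1, 7.94 for Lyz2, 7.50 for Adgre1 and 6.79 for Cd74. They were 4.79 for Csf1r, 4.67 for Cd14 and 4.55 for C1qa. The part of these markers in the members' changes was not tested.

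Individual arrays and the block for culture decided many of these calls. The groups of 3 arrays did not overlap for 10 of 31 members after IgE in ST2KO cells (beside 28.8% of all genes) and for 7 in WT cells (beside 34.5%). After IL-33 they did not overlap for 3 members in ST2KO cells (beside 5.07%) and for 4 in WT cells (beside 30.1%). Without the block, 4 members were called for IgE in ST2KO cells (beside 12.6% of all genes), 2 for IgE in WT cells (beside 11.9%) and 4 for IL-33 in WT cells (beside 11.8%). Without the arrays numbered 3, the counts were 19 (beside 39.1%), 14 (beside 39.4%) and 10 (beside 40.7%) for the same 3 comparisons, and 0 for IL-33 in ST2KO cells. Eno2 for IgE in both genotypes and for IL-33 in WT, Ddit4 in the same 3 comparisons, and Pfkm and Pgam1 for IgE in ST2KO were among the calls that held without the block.

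**Figure D1:**
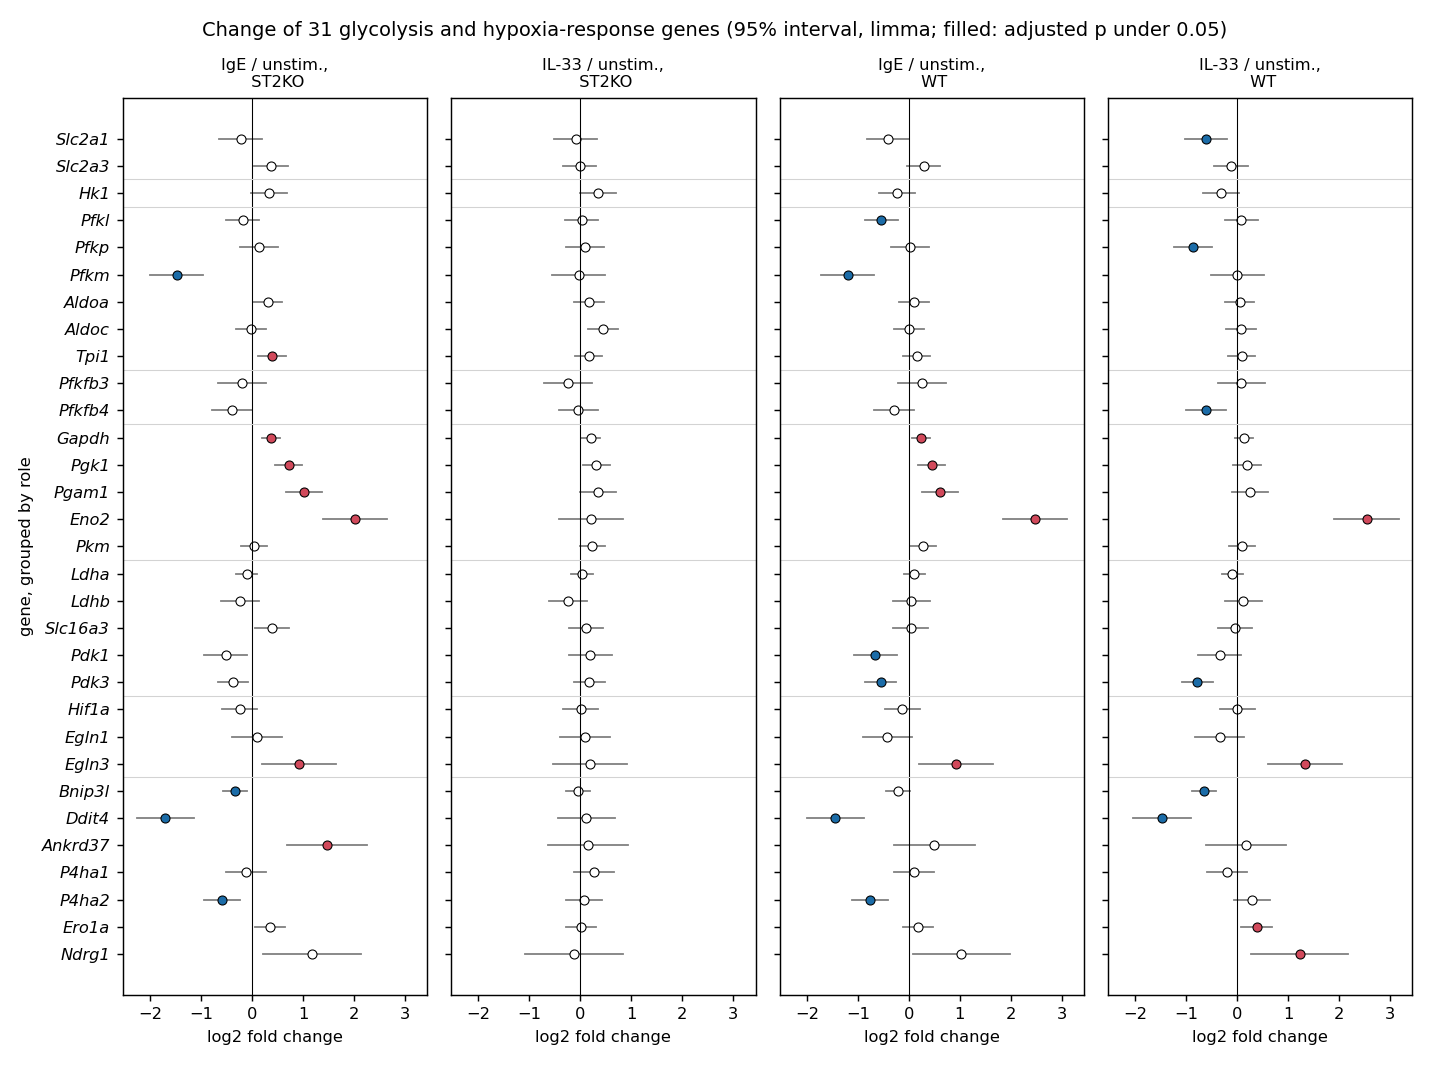
Log2 fold change of each of the 31 measured members with its 95% interval, in rows grouped by role from glucose uptake (top) to hypoxia-inducible genes (bottom), for IgE and IL-33 against unstimulated cells in ST2KO and in WT. Filled points passed an adjusted p under 0.05 (red higher, blue lower). Eno2 stands out to the right in every panel except IL-33 in ST2KO, where the members lie between -0.25 and 0.44, and Ddit4 stands out to the left in the same 3 panels.

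The enzymes of the ATP-earning phase of glycolysis had the largest share of measured genes called with IgE among the roles. Of 5 measured, 4 rose in ST2KO cells (80%, where 15.1% of all genes rose) with a median change of 0.72 over the 5, and 4 rose in WT cells (80%, where 14.6% of all genes rose) with a median of 0.45, against medians over all genes of -0.04 and -0.03. The 4 genes were Gapdh, Pgk1, Pgam1 and Eno2 in both genotypes. IL-33 raised 1 of the 5 in WT cells, Eno2 (20%, where 13.5% of all genes rose).

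Eno2, the enolase first described in neurons, had the largest rise of any member. Its level was 8.64, 8.47 and 9.13 in IgE-activated WT cells and 8.98, 9.16 and 8.27 in IL-33-stimulated WT cells, against 6.22, 6.36 and 6.21 in unstimulated WT cells. Neither stimulated group overlapped the unstimulated one. The rise was 5.59-fold with IgE (log2 fold change 2.48, SE 0.30, adjusted p = 1.24e-05) and 5.81-fold with IL-33 (log2 fold change 2.54, SE 0.30, adjusted p = 1.08e-05). In ST2KO cells Eno2 was 8.10, 8.79 and 9.88 after IgE and 6.80, 7.45 and 7.03 after IL-33, against 6.86, 6.98 and 6.84 without stimulation. IgE raised it 4.08-fold there (log2 fold change 2.03, SE 0.30, adjusted p = 7.96e-05), by 1.24, 1.80 and 3.04 within cultures 1, 2 and 3. The change with IL-33 in ST2KO cells was 0.20 (95% interval -0.43 to 0.83, adjusted p = 1), and the ST2KO IL-33 arrays overlapped the unstimulated ones.

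Pgam1, the phosphoglycerate mutase of most tissues, was 9.96, 9.91 and 10.15 in ST2KO cells after IgE, against 9.21, 9.08 and 8.64 in unstimulated ST2KO cells. It rose 2.04-fold (log2 fold change 1.03, SE 0.17, adjusted p = 0.00019), and the groups did not overlap. In WT cells it was 10.31, 9.98 and 10.02 after IgE, against 9.80, 9.72 and 8.94 without stimulation, again without overlap (log2 fold change 0.62, SE 0.17, adjusted p = 0.00918). The WT call was lost when any 1 of WT IgE replicate 3 and WT unstimulated replicate 3 was left out (adjusted p up to 0.0925), under median scaling, and without the block for culture (adjusted p = 0.11). A second Pgam1 probe rose by 0.75 in ST2KO cells and by 0.78 in WT cells.

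Pgk1, the phosphoglycerate kinase that makes the first ATP of this phase, was 12.11, 11.97 and 12.12 in ST2KO cells after IgE and 11.45, 11.45 and 11.15 in unstimulated ST2KO cells (log2 fold change 0.72, SE 0.13, adjusted p = 0.000403). The groups did not overlap in ST2KO cells. In WT cells it was 12.69, 12.59 and 11.54 after IgE and 12.37, 12.34 and 10.76 without stimulation, and the groups overlapped, with culture WT3 below the other two in every condition (log2 fold change 0.45, SE 0.13, adjusted p = 0.0126). Gapdh rose by 0.37 in ST2KO cells (SE 0.08, adjusted p = 0.00273) and by 0.23 in WT cells (SE 0.08, adjusted p = 0.0443). Without the block the Pgk1 calls were lost (adjusted p = 0.254 in ST2KO and 0.518 in WT), as were the Gapdh calls (adjusted p = 0.27 and 0.536 in the same order), and median scaling ended the Gapdh call in WT cells. The Pgk1 call in WT cells was also lost when any 1 of WT IgE replicates 1 and 3 and WT unstimulated replicate 3 was left out (adjusted p up to 0.115), and the Gapdh call in WT cells when any 1 of WT IgE replicates 1, 2 and 3 and WT unstimulated replicates 2 and 3 was left out (adjusted p up to 0.268) or when all arrays numbered 3 were left out (adjusted p = 0.256). A second Pgk1 probe rose by 0.58 in ST2KO cells and changed by 0.16 in WT cells (adjusted p = 0.0323 and 0.596). Pkm, which makes pyruvate, changed by 0.03 in ST2KO cells (adjusted p = 0.869) and by 0.28 in WT cells (adjusted p = 0.0814) and was not called.

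**Figure D2:**
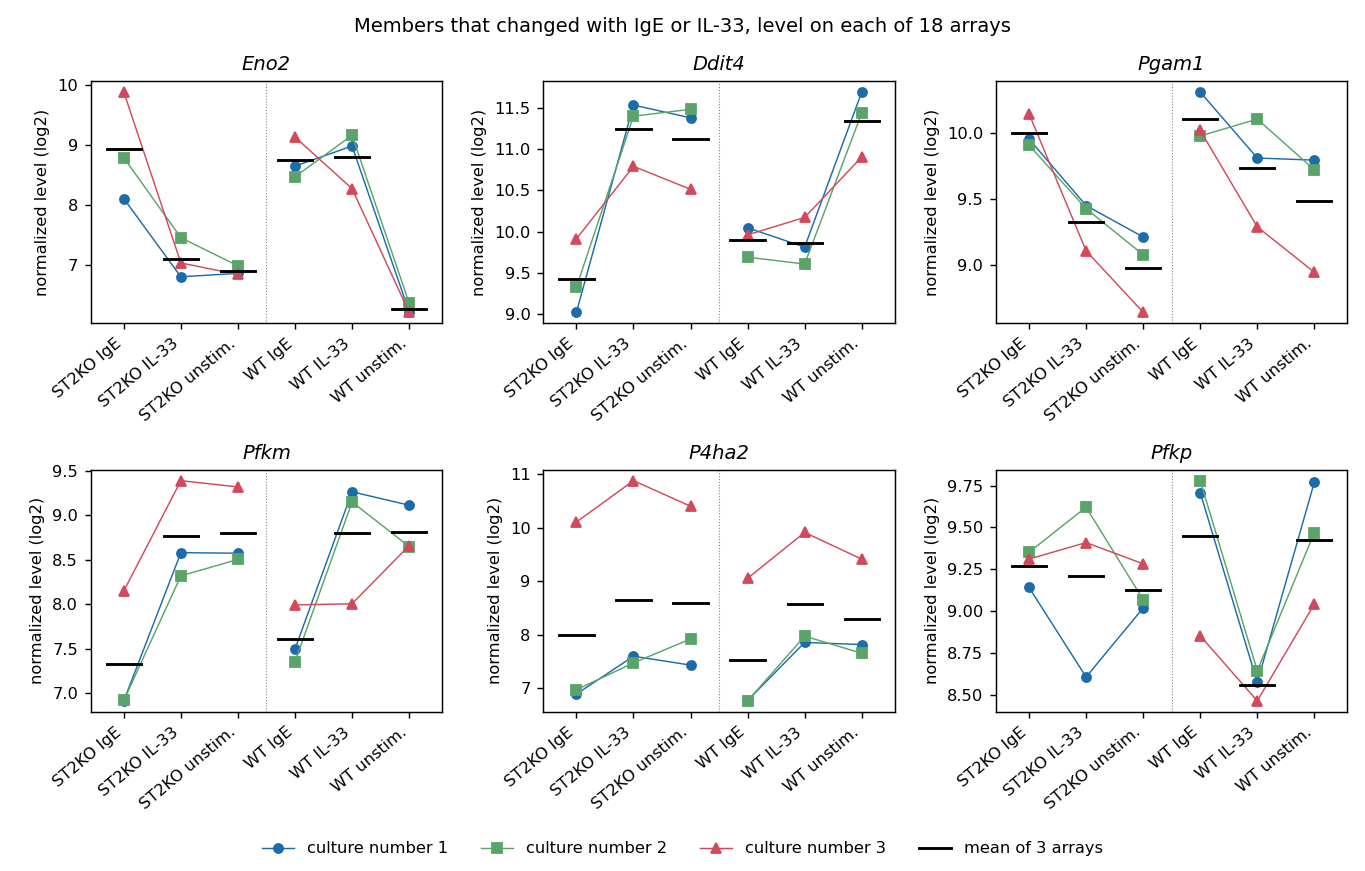
Normalized log2 level of 6 members on each of the 18 arrays, with ST2KO groups left of WT groups and unstimulated cells last within each genotype. Lines join the arrays of 1 culture number, black bars are means of 3 arrays, and the ST2KO IgE array of culture 3 was placed by rank. Eno2 is low in both unstimulated groups and in ST2KO IL-33, Ddit4 is high in the same 3 groups, and Pfkm is low after IgE in cultures 1 and 2 of both genotypes.

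In the ATP-spending phase Pfkm, Pfkp and Pfkl encode phosphofructokinase, which catalyses the committed step. In WT cells Pfkm and Pfkl fell with IgE and were higher after IL-33 than after IgE, and Pfkp fell with IL-33. Pfkm, the muscle form, was 6.91, 6.92 and 8.15 in IgE-activated ST2KO cells, against 8.57, 8.50 and 9.32 in unstimulated ST2KO cells, and fell there (log2 fold change -1.47, SE 0.25, adjusted p = 0.00024). In WT cells it was 7.50, 7.35 and 7.99 after IgE and 9.27, 9.15 and 8.0 after IL-33, against 9.11, 8.65 and 8.66 without stimulation. The IgE groups lay below the unstimulated groups in both genotypes, and in WT the fall was 2.29-fold (log2 fold change -1.19, SE 0.25, adjusted p = 0.00135). The change with IL-33 in WT cells was -0.00 (95% interval -0.52 to 0.52), and IL-33 against IgE differed by 1.19 (SE 0.25, adjusted p = 0.00257). That difference was 1.77, 1.80 and 0.01 in cultures WT1, WT2 and WT3. Without the block, both WT calls were lost (adjusted p = 0.0655 for IgE and 0.124 for IL-33 against IgE). Of 2 further Pfkm probes, one fell by 1.25 with IgE in ST2KO cells and changed by -0.51 in WT cells (adjusted p = 0.0674), and the dimmest changed by -0.18 and -0.32 (adjusted p = 0.541 and 0.25).

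Pfkp, the platelet form, was 8.58, 8.65 and 8.47 in IL-33-stimulated WT cells and 9.71, 9.78 and 8.85 in IgE-activated WT cells, against 9.77, 9.47 and 9.04 in unstimulated WT cells. All 3 IL-33 arrays lay below both other groups. It fell 1.82-fold with IL-33 (log2 fold change -0.87, SE 0.18, adjusted p = 0.00124) and changed by 0.02 with IgE (95% interval -0.35 to 0.39). In ST2KO cells Pfkp was 8.61, 9.62 and 9.41 after IL-33, against 9.02, 9.07 and 9.28 without stimulation, and the groups overlapped (log2 fold change 0.09, SE 0.18, adjusted p = 1). A second Pfkp probe fell by 1.22 with IL-33 in WT cells.

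Pfkl, the liver form, was 9.71, 9.84 and 8.49 in IgE-activated WT cells and 10.24, 10.39 and 9.25 in IL-33-stimulated WT cells, against 10.49, 9.94 and 9.22 in unstimulated WT cells. The groups overlapped, since culture WT3 was lower than WT1 and WT2 in all conditions. Within cultures it fell with IgE by 0.78, 0.10 and 0.73 in WT1, WT2 and WT3 (log2 fold change -0.54, SE 0.15, adjusted p = 0.0126), and it was higher after IL-33 than after IgE in each (log2 fold change 0.61, SE 0.15, adjusted p = 0.0108). The IgE call was lost without the block (adjusted p = 0.63) and when any 1 of WT IgE replicates 1 and 3 and WT unstimulated replicates 1 and 3 was left out (adjusted p up to 0.12). The IL-33 against IgE call was lost without the block (adjusted p = 0.77), when any 1 of WT IgE replicates 1 and 3 and WT IL-33 replicate 2 was left out (adjusted p up to 0.0864), and under median scaling. A dim second Pfkl probe, detected on 4 arrays, changed by -0.29 between IL-33 and IgE and was not called (adjusted p = 0.228).

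Pfkfb4 makes and breaks fructose 2,6-bisphosphate, the activator of phosphofructokinase. It was 8.33, 8.02 and 8.92 in IL-33-stimulated WT cells, against 9.17, 8.88 and 9.06 in unstimulated WT cells, and fell (log2 fold change -0.61, SE 0.18, adjusted p = 0.0169). The groups overlapped, and the call was lost without the block (adjusted p = 0.109) and when any 1 of WT IL-33 replicates 1 and 2 and WT unstimulated replicates 1 and 2 was left out (adjusted p up to 0.156). Its relative Pfkfb3 was detected on 12 of 17 arrays and was not called. The chosen probes of the aldolases Aldoa and Aldoc and of the hexokinase Hk1 were not called in any of the 4 stimulus comparisons, with changes between -0.33 and 0.44. A dim Aldoc probe, detected on 8 arrays, was called lower with IL-33 in WT cells (-0.49, adjusted p = 0.0365). Tpi1, triose phosphate isomerase, rose by 0.39 with IgE in ST2KO cells (SE 0.13, adjusted p = 0.0262). Of 2 further Tpi1 probes, both detected on all 17 arrays, the brighter rose by 0.55 there (adjusted p = 0.00215) and changed by 0.13 with IgE in WT cells (adjusted p = 0.476). The dimmer changed by 0.45 in ST2KO cells (adjusted p = 0.0723) and rose by 0.52 with IgE in WT cells (adjusted p = 0.0391), where the chosen probe changed by 0.15 and was not called. The chosen probe's call was lost without the block (adjusted p = 0.518) and when any 1 of ST2KO IgE replicates 2 and 3 and ST2KO unstimulated replicates 1 and 3 was left out (adjusted p up to 0.138).

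Of the glucose transporters, Slc2a1 (GLUT1) was 11.59, 11.71 and 10.86 in IL-33-stimulated WT cells, against 12.57, 12.65 and 10.77 in unstimulated WT cells. It fell (log2 fold change -0.61, SE 0.20, adjusted p = 0.0263), by 0.99 and 0.94 in cultures WT1 and WT2 and with a difference of 0.09 in WT3, and the groups overlapped. That call was lost without the block (adjusted p = 0.407) and when any 1 of WT IL-33 replicates 1 and 2 and WT unstimulated replicates 1 and 2 was left out (adjusted p up to 0.187). Slc2a3 (GLUT3), which has a high affinity for glucose, changed by 0.37 with IgE in ST2KO cells (95% interval 0.04 to 0.70) and by 0.29 in WT cells (95% interval -0.04 to 0.62), neither called. Without the arrays numbered 3 its rises with IgE were called, at 0.56 in ST2KO cells (adjusted p = 0.000219) and 0.46 in WT cells (adjusted p = 0.00183).

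Genes of the pyruvate branch that moved were the pyruvate dehydrogenase kinases. Pdk3 was 9.05, 9.19 and 8.38 in IgE-activated WT cells and 8.92, 8.89 and 8.12 in IL-33-stimulated WT cells, against 9.85, 9.66 and 8.76 in unstimulated WT cells. Each stimulated array was below the unstimulated array of its own culture, although the groups overlapped. The falls were 0.55 log2 units with IgE (SE 0.14, adjusted p = 0.00699) and 0.78 with IL-33 (SE 0.14, adjusted p = 0.000533). Both Pdk3 calls were lost without the block (adjusted p = 0.518 and 0.333 for IgE and IL-33), and the IgE call when any 1 of WT IgE replicate 1 and WT unstimulated replicate 1 was left out (adjusted p up to 0.0679). Pdk1, a classical HIF-1 target, was 6.56, 6.87 and 5.50 in IgE-activated WT cells, against 7.58, 7.31 and 6.01 in unstimulated WT cells, and fell within each culture (log2 fold change -0.66, SE 0.20, adjusted p = 0.0179). The Pdk1 call was lost without the block (adjusted p = 0.54) and when any 1 of WT IgE replicate 1 and WT unstimulated replicate 1 was left out (adjusted p up to 0.131). Ldha, which reduces pyruvate to lactate, changed by -0.11 with IgE in ST2KO cells (95% interval -0.32 to 0.11), and by 0.11 with IgE (95% interval -0.10 to 0.32) and -0.09 with IL-33 (95% interval -0.30 to 0.12) in WT cells. Ldhb, the form that favours pyruvate, and Slc16a3, the lactate exporter MCT4, were detected on 3 and 6 of 17 arrays and were not called.

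Hif1a RNA was 6.60, 6.79 and 7.69 in ST2KO cells after IgE and 6.91, 7.32 and 7.58 after IL-33, against 7.10, 6.97 and 7.74 in unstimulated ST2KO cells. In WT cells it was 6.55, 6.80 and 7.49 after IgE and 6.88, 6.81 and 7.54 after IL-33, against 6.72, 6.93 and 7.57 without stimulation. The groups overlapped in every case, and the array of culture 3 was the highest in all 6 groups. Its changes with IgE were -0.24 in ST2KO cells (95% interval -0.58 to 0.10) and -0.13 in WT cells (95% interval -0.47 to 0.21). With IL-33 they were 0.00 in ST2KO cells (95% interval -0.34 to 0.34) and 0.00 in WT cells (95% interval -0.34 to 0.35). Misses of the threshold do not show equal levels, but these intervals bound any change to less than 0.6 log2 units in the 4 comparisons. Hif1a is controlled largely at the level of its protein, which these arrays do not measure.

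Egln3, the prolyl hydroxylase that HIF-1 itself induces, was 7.02, 7.28 and 4.35 in IgE-activated WT cells and 7.67, 7.83 and 4.34 in IL-33-stimulated WT cells, against 6.44, 5.12 and 4.27 in unstimulated WT cells. Cultures WT1 and WT2 carried the rise and the probe was not detected on any array of WT3. The rises were 0.93 with IgE (SE 0.34, adjusted p = 0.0465) and 1.33 with IL-33 (SE 0.34, adjusted p = 0.00693). In ST2KO cells it was 4.66, 4.97 and 5.96 after IgE, against 4.25, 4.20 and 4.38 in unstimulated cells, where it was detected on 0 of 3 arrays. On the measured levels the ST2KO rise was called (adjusted p = 0.0482). Against the detection floor of those 3 arrays the mean after IgE was 1.42-fold higher, a size that was not tested. The IgE arrays are near that floor too. Of the 2 with a detection p-value for this probe, 1 detected it, and replicate 3 was placed by rank. Without the block all 3 Egln3 calls were lost (adjusted p = 0.546 in ST2KO after IgE, 0.549 in WT after IgE and 0.368 in WT after IL-33). The ST2KO call was lost when any 1 of ST2KO IgE replicates 2 and 3 and ST2KO unstimulated replicates 1, 2 and 3 was left out (adjusted p up to 0.239), and when all arrays numbered 3 were left out (adjusted p = 0.0671). The WT IgE call was lost when any 1 of WT IgE replicates 1, 2 and 3 and WT unstimulated replicates 1 and 2 was left out (adjusted p up to 0.5), and the WT IL-33 call when any 1 of WT IL-33 replicate 2 and WT unstimulated replicate 2 was left out (adjusted p up to 0.0849). The WT rises were 1.36 with IgE and 1.96 with IL-33 when the arrays numbered 3 were left out. Egln1, the main oxygen sensor of most cells, was not called by its chosen probe in any comparison, with changes of 0.09 after IgE in ST2KO cells and -0.42 after IgE and -0.34 after IL-33 in WT cells. A dim Egln1 probe, detected on 6 arrays, was called lower with IgE in WT cells (-0.46, adjusted p = 0.0382).

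Among hypoxia-inducible genes outside metabolism, the direction differed from gene to gene. IgE called 4 of the 7 measured in ST2KO cells, 1 up and 3 down (57.1%, beside 33.8% of all genes), and 2 in WT cells, both down (28.6%, beside 32.5%). IL-33 called 4 in WT cells, 2 up and 2 down (57.1%, beside 31.5%). Ddit4 (REDD1), a brake on mTORC1 that stress and low oxygen induce, had the largest fall of any member. It was 9.02, 9.33 and 9.91 in ST2KO cells after IgE and 11.53, 11.40 and 10.79 after IL-33, against 11.38, 11.48 and 10.51 in unstimulated ST2KO cells. WT cells had 10.05, 9.69 and 9.96 after IgE and 9.81, 9.61 and 10.17 after IL-33, against 11.69, 11.43 and 10.90 without stimulation. The 3 groups that fell lay below their unstimulated group without overlap, whereas ST2KO IL-33 overlapped it. IgE lowered Ddit4 3.25-fold in ST2KO cells (log2 fold change -1.70, SE 0.27, adjusted p = 0.00014) and 2.72-fold in WT cells (log2 fold change -1.44, SE 0.27, adjusted p = 0.000566), and IL-33 lowered it 2.78-fold in WT cells (log2 fold change -1.48, SE 0.27, adjusted p = 0.000488).

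P4ha2, a collagen prolyl hydroxylase subunit, was 6.89, 6.97 and 10.10 in ST2KO cells after IgE, against 7.43, 7.92 and 10.40 in unstimulated ST2KO cells. WT cells had 6.77, 6.77 and 9.05 after IgE and 7.86, 7.97 and 9.91 after IL-33, against 7.82, 7.65 and 9.41 without stimulation. The groups overlapped because culture 3 was far above cultures 1 and 2 in both genotypes, but each culture was lower after IgE. P4ha2 fell with IgE in ST2KO cells (log2 fold change -0.59, SE 0.17, adjusted p = 0.0112) and in WT cells (log2 fold change -0.76, SE 0.17, adjusted p = 0.00212), and was higher after IL-33 than after IgE in WT (log2 fold change 1.05, SE 0.17, adjusted p = 0.000305). Without the block these 3 calls were lost (adjusted p = 0.789, 0.726 and 0.799 in the same order), and the ST2KO call also when any 1 of ST2KO IgE replicate 2 and ST2KO unstimulated replicate 2 was left out (adjusted p up to 0.13). A second P4ha2 probe changed by -0.36 in ST2KO cells and -0.50 in WT cells with IgE, neither called, and was 0.87 higher after IL-33 than after IgE (adjusted p = 0.014). P4ha1, the other catalytic subunit, was not called by its chosen probe. A second P4ha1 probe, detected on all 17 arrays, fell by 0.61 with IgE in ST2KO cells (adjusted p = 0.0368) and by 0.61 with IL-33 in WT cells (adjusted p = 0.0409), where the chosen probe changed by -0.12 and -0.21.

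Bnip3l (NIX), a mitophagy receptor, was 10.23, 10.40 and 10.51 in IL-33-stimulated WT cells and 10.84, 10.69 and 10.92 in IgE-activated WT cells, against 11.16, 10.99 and 10.96 in unstimulated WT cells. The IL-33 arrays lay below both other groups. Bnip3l fell with IL-33 (log2 fold change -0.66, SE 0.11, adjusted p = 0.000234), and was lower after IL-33 than after IgE (log2 fold change -0.44, SE 0.11, adjusted p = 0.00993). With IgE it fell in ST2KO cells by 0.33 (SE 0.11, adjusted p = 0.0262), to 10.40, 10.61 and 10.75, against 10.76, 10.81 and 11.18 in unstimulated ST2KO cells. The IL-33 against IgE call was lost without the block (adjusted p = 0.0766) and when any 1 of WT IgE replicates 1 and 3 and WT IL-33 replicate 1 was left out (adjusted p up to 0.103). The ST2KO call was lost without the block (adjusted p = 0.11), under median scaling, and when any 1 of ST2KO IgE replicates 1 and 3 and ST2KO unstimulated replicates 1 and 3 was left out (adjusted p up to 0.156).

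Ndrg1, a stress-induced gene linked to mast cell maturation in mouse, was 11.59, 11.31 and 11.41 in ST2KO cells after IgE, against 9.12, 9.59 and 12.07 in unstimulated ST2KO cells. WT cells had 11.21, 11.36 and 11.14 after IgE and 11.18, 11.16 and 11.96 after IL-33, against 9.91, 9.43 and 11.29 without stimulation. Culture 3 was above cultures 1 and 2 without stimulation in both genotypes, and after IgE cultures 1 and 2 were higher than unstimulated while culture 3 was lower. The rise with IL-33 in WT was called (log2 fold change 1.22, SE 0.45, adjusted p = 0.0494) and was lost without the block (adjusted p = 0.337) and when any 1 of WT IL-33 replicates 1, 2 and 3 and WT unstimulated replicates 1 and 2 was left out (adjusted p up to 0.271). The changes with IgE were 1.17 in ST2KO cells (adjusted p = 0.0561) and 1.03 in WT cells (adjusted p = 0.0938). A second Ndrg1 probe changed by 1.16 in ST2KO cells (adjusted p = 0.0529) and rose by 1.22 in WT cells (adjusted p = 0.0425) with IgE, and rose by 1.44 with IL-33 in WT cells (adjusted p = 0.019). For the chosen probe the IgE changes were 2.09 and 1.62 without the arrays numbered 3, and both were then called.

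Ankrd37, a small ankyrin-repeat protein gene known as a HIF-1 target, was 5.68, 6.61 and 9.06 in ST2KO cells after IgE, against 5.29, 4.82 and 6.82 in unstimulated ST2KO cells. It rose in each culture (log2 fold change 1.47, SE 0.37, adjusted p = 0.00584), with groups that overlapped, and the call was lost without the block (adjusted p = 0.317). In WT cells it changed by 0.50 with IgE (adjusted p = 0.342), and by -0.88, 0.55 and 1.83 in cultures WT1, WT2 and WT3. Ero1a, an oxidase of the endoplasmic reticulum detected on 7 of 17 arrays, rose by 0.38 with IL-33 in WT cells (SE 0.14, adjusted p = 0.0492). The Ero1a call was lost without the block (adjusted p = 0.173), under median scaling, and when any 1 of WT IL-33 replicates 1 and 2 and WT unstimulated replicates 1, 2 and 3 was left out (adjusted p up to 0.199).

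IL-33 and IgE were also set against each other in WT cells. They differed for 5 of 31 members (16.1%, where 15.8% of all genes were called, 7.58% higher and 8.25% lower): Pfkl, Pfkm and P4ha2 were higher after IL-33, and Pfkp and Bnip3l were lower, with the values given above. Eno2 and Ddit4 did not pass this test, with differences of 0.06 (95% interval -0.57 to 0.68) and -0.03 (95% interval -0.60 to 0.53). The groups did not overlap for 3 members (beside 21.3% of all genes). Without the arrays numbered 3, Eno2 was 0.51 higher after IL-33 (adjusted p = 0.0257) and 9 members were called (beside 23.3%), and without the block 0 were (beside 4.43%). In the blocked fit 7 members had an unadjusted p under 0.05, beside 2808 of 10529 genes. Median scaling gave 2 members higher and 3 lower (beside 448 genes higher and 1025 lower), and 30.4% of all calls higher, against 47.9%.

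The response to IL-33 was compared between genotypes with an interaction term. In ST2KO cells 0 members passed with IL-33 and 3 had an unadjusted p under 0.05, while over all genes 0 passed and 390 had an unadjusted p under 0.05. The difference between the ST2KO and the WT response was called for 5 members (16.1%, where 15.6% of all genes were called, 8.94% higher and 6.63% lower in ST2KO). For Eno2 it was -2.34 (SE 0.42, adjusted p = 0.00146), with -2.82, -2.33 and -1.87 at culture numbers 1, 2 and 3. For Ddit4 it was 1.59 (SE 0.38, adjusted p = 0.00863), and all 3 culture numbers differed the same way. Pdk3 differed by 0.96 (adjusted p = 0.00419), Pfkp by 0.95 (adjusted p = 0.0149) and Bnip3l by 0.61 (adjusted p = 0.0121). Without the block Eno2 was still called (adjusted p = 0.0219), and the others were lost, Ddit4 at 0.0551, Pdk3 at 0.577, Pfkp at 0.24 and Bnip3l at 0.0993. The Pfkp call was lost when any 1 of ST2KO IL-33 replicate 2, WT IL-33 replicates 1 and 2, ST2KO unstimulated replicate 2 and WT unstimulated replicate 1 was left out (adjusted p up to 0.0685), and the Bnip3l call when any 1 of WT IL-33 replicate 1 and WT unstimulated replicate 1 was left out (adjusted p up to 0.0583). Over all members the interaction called 1 without the block (beside 2.72% of all genes) and 10 without the arrays numbered 3 (beside 26.9%). Median scaling gave 6 higher and 1 lower, with 80.1% of all calls higher, against 57.4%, and moved the median of all genes by 0.18. For IgE the ST2KO and WT responses differed for 0 members (where 0% of all genes were called, and 0.256% without the arrays numbered 3), with 1 member, Hk1, and 298 genes at an unadjusted p under 0.05. The Hk1 difference was 0.56 on its chosen probe and 0.06 on a second probe.

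Unstimulated ST2KO cells were set against unstimulated WT cells with the culture number as a shared block. Of 31 members 0 were called (where 0.199% of all genes were called, 0.0665% higher and 0.133% lower, and 0.0095% without the block). Of the members 2, Hk1 and Pgam1, had an unadjusted p under 0.05, beside 882 of 10529 genes. By sign alone 23 of the 31 were lower in ST2KO, a count that was not made over all genes. The median difference over the members was -0.30, beside 0.01 over all genes, and median scaling moved the median of all genes by -0.13 and the higher share of all calls to 12.5%, against 33.3%. The groups did not overlap for 5 members (beside 8.04% of all genes). Hk1 was 7.87, 7.54 and 7.27 in unstimulated ST2KO cells and 8.37, 8.23 and 7.99 in unstimulated WT cells, without overlap (log2 fold change -0.64, SE 0.16, adjusted p = 0.165). A second Hk1 probe, detected on all 17 complete arrays, differed by -0.13 (adjusted p = 0.892). The second Pgam1 probe, detected as widely, differed by -0.14 (adjusted p = 0.93). In this comparison the 3 conditions of a culture counted as independent arrays in the spread, which can make p-values too small. Without the arrays numbered 3, which leaves 2 cultures per genotype, 14 members were called, 13 lower and 1 higher in ST2KO (45.2%, where 5.77% of all genes were called). Of these 14, Egln3 was lower in ST2KO but not detected on any unstimulated ST2KO array, so its difference has no measured size. The largest differences among the other 13 were -2.72 for Ankrd37, -1.80 for Pdk1, -1.49 for Aldoc and -1.45 for Pfkl, and the one gene higher was Eno2 at 0.63 (adjusted p = 0.0424). The other 8 were the transporter Slc2a1 and the enzymes Hk1, Aldoa, Tpi1, Gapdh, Pgk1, Pgam1 and Pkm, each lower in ST2KO. On the unstimulated arrays numbered 3, ST2KO was instead above WT for Aldoc (9.15 against 8.39) and Pfkl (9.97 against 9.22). The same held there for Ankrd37, Pdk1, Slc2a1, Aldoa, Tpi1, Gapdh, Pgk1 and Pkm, whereas Hk1 and Pgam1 were again lower in ST2KO. The lower levels of most of these genes thus describe cultures 1 and 2 only.

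Levels also differed between the 6 cultures. The 6 culture means of a member, each over 3 conditions, spanned, genotype difference included, a median of 0.95 log2 units, beside 0.53 over all genes, and 14 of 31 members (45.2%) spanned more than 1 unit, beside 19.2% of all genes. Culture WT3 was the lowest WT culture for 24 of 31 members (77.4%), beside 47.5% of all genes. These shares describe 6 cultures and have no test.

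**Figure D3:**
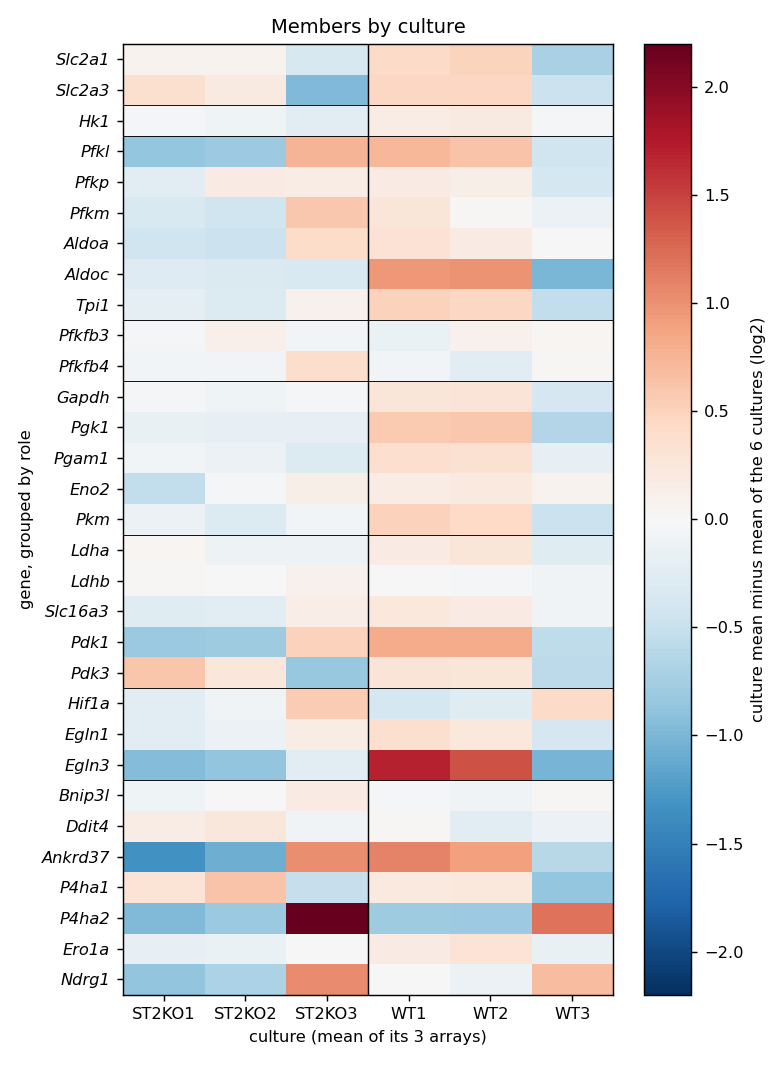
Mean level of each of the 31 members in each culture (mean of its 3 arrays) minus the mean of the 6 cultures, on a log2 colour scale (red higher, blue lower), with ST2KO cultures left of WT cultures and genes in order of role. Most glycolytic enzymes are red in WT1 and WT2 and blue in WT3, and Ankrd37, Pdk1 and Pfkl are blue in ST2KO1 and ST2KO2 and red in ST2KO3.

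For 4 members, Ankrd37, Egln3, Pdk1 and Pfkl, the culture numbered 3 stood on opposite sides in the 2 genotypes: more than 0.5 above the mean of the other two in ST2KO and more than 0.5 below it in WT. That was 12.9% of the members, where 0.171% of all genes (18 of 10529) met the same rule, and the rule was chosen after the levels were seen. Ankrd37 averaged 5.32, 5.57 and 7.66 in ST2KO1, ST2KO2 and ST2KO3, and 7.73, 7.55 and 6.03 in WT1, WT2 and WT3. Pdk1 averaged 5.45, 5.48 and 6.78 in the ST2KO cultures and 7.10, 7.09 and 5.72 in the WT cultures in the same order. Pfkl averaged 8.57, 8.62 and 10.16 in the ST2KO cultures and 10.15, 10.05 and 8.99 in the WT cultures. Each of these 3 genes showed the opposite placing in all 3 conditions of both genotypes. Egln3 averaged 4.38, 4.47 and 5.09 in the ST2KO cultures and 7.04, 6.74 and 4.32 in the WT cultures. Its levels in ST2KO1, ST2KO2 and WT3 were near background, which limits its place among the 4. Of 39 other measured hypoxia-response genes 1 (2.56%) met the rule, the angiogenic growth factor gene Vegfa, and 1 met the opposite rule, and of 24 other glycolysis and pyruvate genes 0 met it. Vegfa averaged 8.79, 8.74 and 10.86 in the ST2KO cultures and 10.05, 9.98 and 9.48 in the WT cultures.

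Other members set culture 3 apart in the same direction in both genotypes. P4ha2, Ndrg1 and Hif1a were more than 0.5 higher in culture 3 than in the other two in ST2KO and in WT (9.68% of members, beside 8.31% of all genes), and Slc2a3, Pdk3 and P4ha1 were more than 0.5 lower (9.68%, beside 7.22%). P4ha2 averaged 7.31, 7.46 and 10.46 in ST2KO1, ST2KO2 and ST2KO3, and 7.48, 7.46 and 9.46 in WT1, WT2 and WT3. Aldoc, an aldolase of brain, averaged 9.37, 9.34 and 9.32 in the ST2KO cultures and 10.61, 10.64 and 8.65 in the WT cultures. Markers of other cell states moved with the culture number as well. On arrays numbered 3 the mast cell protease Mcpt4 averaged 14.19, against 8.53 on arrays 1 and 2, and the antigen presentation gene Cd74 averaged 9.94 against 5.21. Of the other mast cell markers, Kit, Fcer1a, Cpa3, Tpsab1, Gata2 and Mitf were also higher there, each by less than Mcpt4. Ms4a2, Tpsb2, Cma1 and Hdc were lower, Hdc at 12.37 against 12.95. Of other macrophage and dendritic cell markers, H2-Ab1 (10.36 against 7.75), Lyz2 and Cd14 were higher, and Csf1r, Adgre1 and C1qa lower. The erythroid markers Hba-a1 (4.64 against 6.44), Klf1 (4.77 against 5.13) and Epor (4.95 against 5.95) were lower. Of the 3 measured basophil markers, Prss34 was lower on arrays numbered 3 (5.60 against 9.28), and Mcpt8 and Cd200r3 were higher (9.74 against 7.15 and 12.76 against 12.29). The summed level of the 7 measured macrophage and dendritic cell markers ran from 468 to 1965 over ST2KO arrays and from 643 to 6945 over WT arrays, on the linear scale of the normalized levels. Adgre1, Lyz2 and H2-Ab1 were detected on all 17 complete arrays, Csf1r on 12, Cd74 on 11, Cd14 on 8 and C1qa on 4. The part of these markers in the culture differences was not tested.

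**Figure D4:**
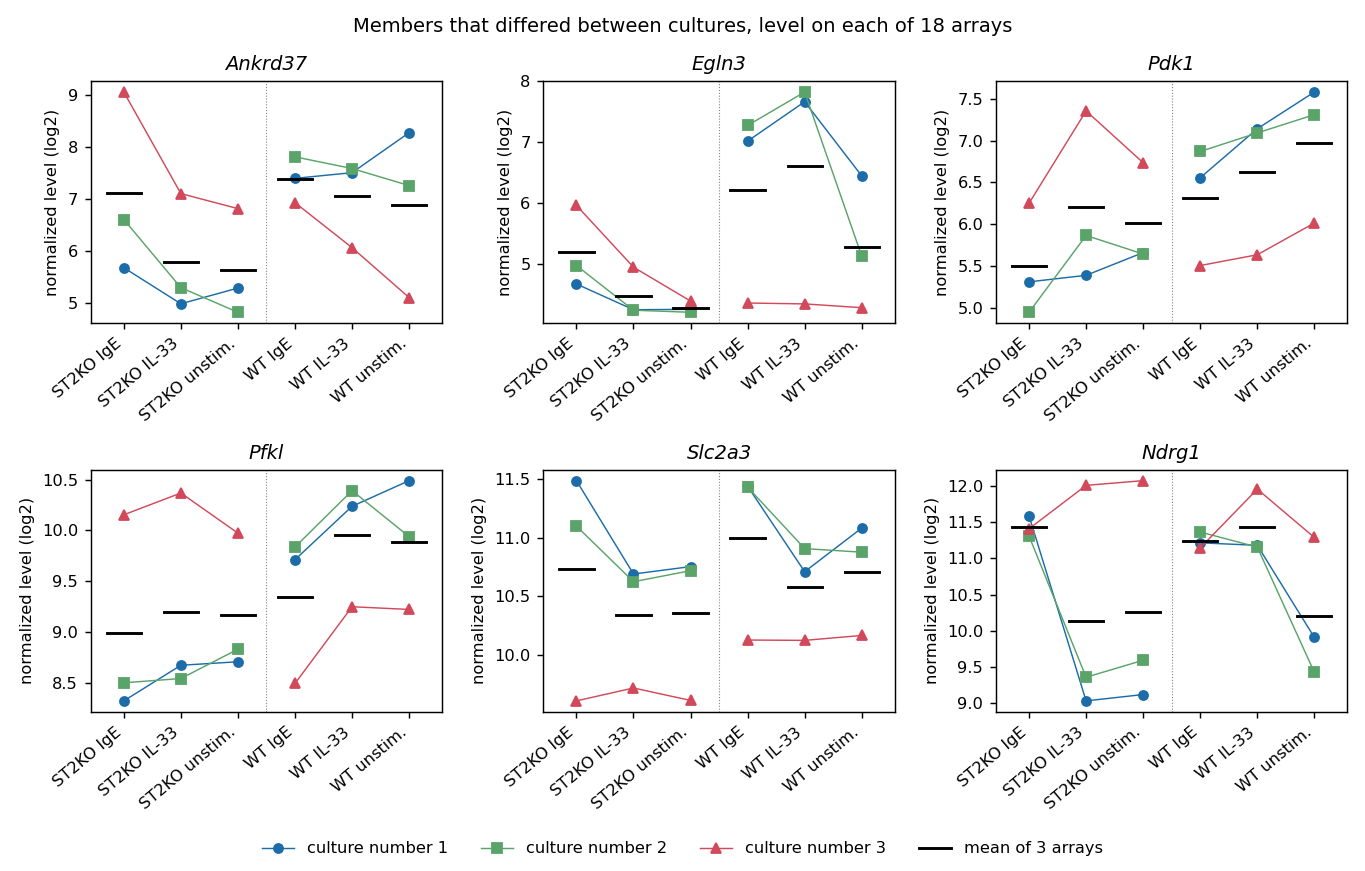
Normalized log2 level of 6 members on each of the 18 arrays, with the groups, lines and bars as in the plot of members that changed with the stimuli. In Ankrd37, Pdk1 and Pfkl the red line of culture 3 lies above the other two in ST2KO and below them in WT, in Slc2a3 it lies below in both, and in Ndrg1 it ends above them in unstimulated cells.

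Further genes of the same pathways were counted from wider lists. Of 44 other glycolysis and pyruvate genes 24 were measured. IgE called 5 of these in ST2KO cells, 2 up and 3 down (20.8%, beside 33.8% of all genes), and 7 in WT cells, 2 up and 5 down (29.2%, beside 32.5%). IL-33 called 9 in WT cells, 2 up and 7 down (37.5%, beside 31.5%). Galm, which interconverts the anomers of sugars such as galactose, fell with IgE by 1.80 (SE 0.22) in ST2KO cells and by 1.93 (SE 0.22) in WT cells, and with IL-33 by 2.10 (SE 0.22) in WT cells. Pdp1, the phosphatase that reactivates pyruvate dehydrogenase, rose with IgE by 0.70 (SE 0.20) in ST2KO cells and by 1.11 (SE 0.20) in WT cells. The Pdp1 calls were lost without the block (adjusted p = 0.222 in ST2KO and 0.055 in WT), and the ST2KO call also with 1 array left out (adjusted p up to 0.0906). Pgam5, a mitochondrial phosphatase, rose with IgE by 0.63 (SE 0.13) in ST2KO cells and by 0.55 (SE 0.13) in WT cells, both lost without the block (adjusted p = 0.0513 and 0.0905). Ldhc, the lactate dehydrogenase of testis, fell in WT cells by 1.45 (SE 0.28) with IgE and by 1.47 (SE 0.28) with IL-33. Slc2a6, a glucose transporter of lysosomes, rose with IL-33 by 0.82 (SE 0.13) in WT cells and was higher there after IL-33 than after IgE by 1.08 (SE 0.13).

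Of 51 other hypoxia-response genes 39 were measured. IgE called 13 in ST2KO cells, 8 up and 5 down (33.3%, beside 33.8% of all genes), and 14 in WT cells, 8 up and 6 down (35.9%, beside 32.5%). IL-33 called 15 in WT cells, 9 up and 6 down (38.5%, beside 31.5%). Ets1, a transcription factor, rose with IgE by 2.14 (SE 0.35) in ST2KO cells and by 2.74 (SE 0.35) in WT cells, and with IL-33 by 2.10 (SE 0.35) in WT cells. Vldlr, a lipoprotein receptor, rose with IgE by 1.38 (SE 0.28) in ST2KO cells and by 1.49 (SE 0.28) in WT cells. The mean log2 level of Vldlr over all arrays was 5.10, near background. Hmox1, which breaks down heme, and Vegfa rose with IL-33 in WT cells, by 2.15 (SE 0.31) and by 1.01 (SE 0.14). Vegfa was also higher after IL-33 than after IgE in WT cells, by 1.10 (SE 0.14), and its response to IL-33 differed between ST2KO and WT cells by -1.23 (SE 0.20). Ccng2, a cyclin of resting cells, fell with IgE by 1.20 (SE 0.18) in ST2KO cells and with IL-33 by 1.14 (SE 0.18) in WT cells, and Plod1, a collagen lysyl hydroxylase, fell with IgE by 1.07 (SE 0.20) in WT cells. Without the block the 3 Vegfa calls were lost (adjusted p = 0.369, 0.51 and 0.612 in the order given), as were Ets1 for IgE in ST2KO (adjusted p = 0.0823) and for IL-33 in WT (adjusted p = 0.0927) and Ccng2 for IL-33 in WT (adjusted p = 0.0574).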

How the data were processed

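Biotin-labelled RNA was read on Illumina bead arrays, as the labels' protocols state. One deposited table gave each array's unnormalized intensity per probe and, per the file headers, each probe's detection p-value on that array. A second deposited table held the authors' log2 values, quantile normalized since its sorted columns differed by at most 0.00077; its background method is not given in the sources used here. With no counts, the number of arrays limits the precision.

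Intensities went through neqc (limma 3.58.1, R 4.3.3, offset 16). The incomplete array was placed by the rank of its probes in the deposited log2 table onto the mean distribution of the 17 complete arrays. Probes with detection p under 0.05 on at least 3 complete arrays were kept, 1 probe per gene with the highest mean. Symbols came from GEO's platform annotation updated to GRCm38.p6: 34885 probes carried 1 symbol, 18 several and 10378 none.

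limma (eBayes with trend, Benjamini-Hochberg over 10529 genes, two-sided) was fitted to all 18 arrays with 1 mean per group. The culture number within genotype was a block, because the labels give 1 culture number to 3 conditions; deviations of same-numbered arrays from their group means correlated at 0.511 to 0.918 within a genotype. For ST2KO against WT the block was the number shared by both genotypes, where that correlation was 0.397 to 0.727. The fit was checked on simulated data. Values per array are given for members called in a stimulus comparison with a fold of 1.5 or more, and for Hif1a, with Hk1 added after its values were seen. Other pathway genes were named from the 4 of each list with the smallest adjusted p in a comparison. Alternatives changed the background correction, scaling, filter, probe rule, spread estimate, block and arrays. Members and lists were chosen with earlier results of these data known. Figures used matplotlib 3.10.9.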

Additional observations from a re-analysis of the deposited data

Results flagged for a closer look

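In 5 members the response to IL-33 differed between ST2KO and WT cells by the interaction test. Eno2 differed most, by -2.34: its response was 0.20 in ST2KO cells and 2.54 in WT cells. Ddit4 differed by 1.59, with 0.12 in ST2KO cells and -1.48 in WT cells. Pdk3 differed by 0.96 (0.17 in ST2KO, -0.78 in WT), Pfkp by 0.95 (0.09 in ST2KO, -0.87 in WT) and Bnip3l by 0.61 (-0.04 in ST2KO, -0.66 in WT). The same test called 15.6% of all genes, beside 16.1% of the members.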

How the results depend on the processing

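Of the 42 calls of members in the 8 comparisons, 0 changed sign under any alternative, and 31 were lost without the replicate block, 17 with a replicate block shared by both genotypes, and 1 to 7 under each change of background correction, scaling, filter on low values (0 of 41 under the stricter one, which no longer measured Ero1a), probe rule or spread estimate. Without the replicate block the members called were 2 for IgE in WT, 4 for IL-33 in WT, 0 for IL-33 against IgE, 4 for IgE in ST2KO and 1 for the IL-33 interaction. Genes called in those 5 comparisons were then 1249, 1246, 466, 1326 and 286, and 1 for ST2KO against WT. With the block shared by both genotypes, 6, 6 and 5 of the 31 members were called for IgE in WT, IL-33 in WT and IgE in ST2KO. Over all 10529 genes 2983, 2920 and 3159 were called in the same order. Without the arrays numbered 3, members called were 9 for IL-33 against IgE, 19 for IgE in ST2KO, 14 for ST2KO against WT and 10 for the IL-33 interaction, and genes called were 607 for ST2KO against WT, 27 for the IgE interaction and 2836 for the IL-33 interaction. For ST2KO against WT, 32 genes were called with median scaling and 2 with only the groups compared. Why these settings moved the counts was not tested.

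Leaving out 1 array at a time gave 5 to 10 members and 2360 to 3317 genes for IgE in WT, 5 to 9 and 2198 to 3281 for IL-33 in WT, 3 to 7 and 995 to 1587 for IL-33 against IgE, and 8 to 13 and 2527 to 3383 for IgE in ST2KO. It gave 0 members for IL-33 in ST2KO, for ST2KO against WT and for the IgE interaction, where genes ran from 0 to 0, from 1 to 22 and from 0 to 3. The IL-33 interaction had 3 to 8 members and 1001 to 2111 genes. The members' median ran from -0.02 to 0.14 for IgE in WT, from -0.06 to 0.07 for IL-33 in WT, from -0.15 to -0.00 for IL-33 against IgE, from -0.04 to 0.11 for IgE in ST2KO, from -0.00 to 0.17 for IL-33 in ST2KO, from -0.42 to -0.08 for ST2KO against WT, and from 0.03 to 0.16 and from 0.01 to 0.21 for the IgE and IL-33 interactions. The weakly measured members (Ldhb, Slc16a3, Ero1a, Egln3 and Pfkfb3) were detected on 3 to 12 of 17 arrays, and their changes are limited by signal near background. A block for the slide was not run, since slides are not named in the files used here.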

Other observations

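The 18 genes whose level was more than 0.5 log2 units higher in ST2KO3 than in ST2KO1 and ST2KO2, and more than 0.5 lower in WT3 than in WT1 and WT2, held 14 besides the 4 members. These were Elovl6, Guca2a, Hilpda, Il33, Map2k1, Mgarp, Prkg1, Rgs11, Rgs16, Serpinb6b, Thsd4, Tmem40, Trib2 and Vegfa. Hilpda averaged 8.47, 8.56 and 9.11 in ST2KO1, ST2KO2 and ST2KO3, and 9.30, 9.20 and 8.27 in WT1, WT2 and WT3. Il33, the gene of the cytokine used as a stimulus, averaged 4.85, 4.94 and 5.58 in the ST2KO cultures and 5.53, 5.73 and 5.04 in the WT cultures. The opposite placing, ST2KO3 lower and WT3 higher by more than 0.5, was met by 29 genes and by 0 members. The genes were picked by this rule after the culture levels were seen, and no test was made.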
